A study of Rattus norvegicus with 6 samples.

Results

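The genes described here encode core parts and regulators of the pre-mRNA splicing machinery, in the ventral hippocampus of adult and aged rats. They were taken by symbol alone: Srsf followed by a digit (SR proteins), symbols that begin with Hnrnp (heterogeneous nuclear ribonucleoproteins, hnRNPs), symbols that begin with Snrp (proteins of the small nuclear ribonucleoproteins, snRNPs), Sf3a or Sf3b followed by a digit, and symbols that begin with U2af. The rule found 56 genes of the 22601 in the count table, and 55 of them passed the filter on low counts, among 14588 genes tested. They comprised 12 SR proteins, 19 hnRNPs, 8 Sm core proteins, 4 proteins specific to the U1 or U2 snRNP, the Sm-like symbol Snrpd2l, 9 SF3A or SF3B subunits and 3 U2AF genes.

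Removal of introns from pre-mRNA is carried out by the spliceosome, which is built from snRNPs on each intron. The Sm proteins form a ring around the snRNAs of U1, U2, U4 and U5. U1 pairs with the 5′ splice site, U2AF reads the polypyrimidine tract and the 3′ splice site, and U2, with its SF3A and SF3B subunits, takes the branch point. SR proteins bind mostly exonic sequences and favour exon inclusion, while many hnRNPs bind introns or exons and can repress or promote use of nearby sites. Neurons make wide use of alternative splicing, and the balance of these factors helps to set it.

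RNA came from male Sprague Dawley rats, an outbred strain, with no genotype or drug treatment named. Adult rats were 4 months old and aged rats 22 months old. In each age group 10 rats had gone through the Morris water maze, a spatial memory test, and 3 of them, drawn at random, gave ventral hippocampus for RNA sequencing. All 6 libraries thus came from separate animals that shared the maze experience.

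Totals lay between 12476758 and 15689921 counts a library. Marker genes were read beside the tissue label, and no marker of neurons or of hippocampal fields was at 0 in any library. The same held for the liver and skeletal muscle markers, so the absence of zeros cannot tell tissues apart. As summed CPM of the library total, the 6 neuronal markers lay between 5933 and 7653 and the 6 markers of hippocampal fields between 189.9 and 518. The 4 neocortex markers lay between 55.6 and 136 CPM, highest in adult replicate 2. Several libraries stood apart through other cells or tissues. The 6 oligodendrocyte markers summed to between 10924 and 16842 CPM in adult and between 6494 and 9147 CPM in aged libraries, which did not overlap. The 6 choroid plexus markers summed to 2146 CPM in adult replicate 1 and to between 9.59 and 73.6 CPM in the other libraries. The 5 liver markers summed to 30.3 and 30.7 CPM in replicate 1 of both ages and to between 202 and 497 CPM elsewhere, and the 5 skeletal muscle markers to between 33.3 and 399 CPM. Whether these contents bear on the values below was not tested. In bulk tissue, fewer cells of a type and less RNA per cell cannot be told apart.

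Levels were compared between genes as deposited FPKM, which divide by gene length. The order below rests on the lengths used, such as 1058 bases for Hnrnpa2b1 and 7805 for Hnrnpu. Before that division Hnrnpu held more counts than Hnrnpa2b1 in each library. The hnRNP transcripts ranged from a mean over 6 libraries of 443 FPKM for Hnrnpa2b1 down to 3.44 FPKM for Hnrnph3. Hnrnpa2b1, whose protein binds RNA in the nucleus and takes part in mRNA transport along dendrites, measured 462, 379 and 464 FPKM in adult replicates 1 to 3 and 427, 476 and 449.8 FPKM in aged replicates 1 to 3. Every one of these values lay above every value of any other gene of the set. Srsf5, an SR protein, came next with 217, 194 and 219.8 FPKM in adult and 212, 221 and 288 FPKM in aged libraries, also above all remaining members in each library.

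Below these, neighbours in the order overlapped. Hnrnpa1, a repressor of exon inclusion at many sites, had a mean of 152 FPKM and ranged from 143 to 165 FPKM. Snrpd2, which encodes the Sm ring protein D2, had a mean of 140.4 FPKM and ranged from 107 to 181 FPKM, so it lay above Hnrnpa1 in some libraries and below it in others. Hnrnpl, a binder of CA-rich RNA, followed at 138 FPKM, Hnrnph1 at 124 FPKM and Hnrnpk at 106 FPKM. The SF3 subunits lay between 14.1 FPKM (Sf3b3) and 98.6 FPKM (Sf3b5), the U2AF genes between 68.5 FPKM (U2af1l4) and 92.2 FPKM (U2af1), and the U1- and U2-specific genes between 18.1 FPKM (Snrpa) and 22.2 FPKM (Snrpb2). Among the Sm core genes, 7 had means between 37.8 FPKM (Snrpb) and 140.4 FPKM, and Snrpn had 0.642 FPKM.

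**Figure D1:**
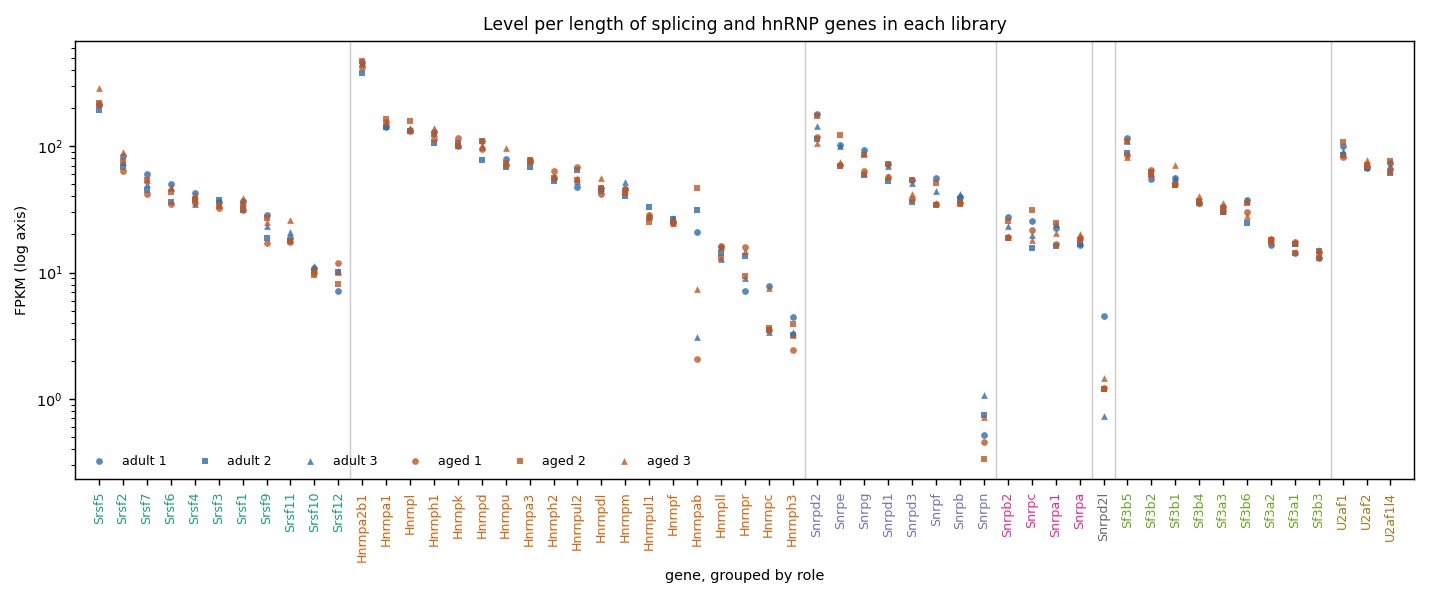
Deposited FPKM on a log axis for each splicing gene with counts, with 1 point for each of the 3 adult and 3 aged libraries and the genes grouped by role. Hnrnpa2b1 stands highest with a mean of 443 FPKM, Snrpn lowest at 0.642 FPKM, and the points of both ages overlap for most genes.

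No splicing gene was called as different with age by the test used. On simulated counts that test called 2% of genes set to differ 1.5-fold and 44.9% of those set to 2-fold. The 200 genes changed there were drawn from all genes above a low CPM limit, so these shares are not rates for the members. Of the 55 genes, 0 passed an adjusted p of 0.05 in edgeR's quasi-likelihood test, where 0% of all genes tested passed, and the smallest adjusted p over all genes was 0.51. DESeq2 called 31 genes, or 0.213% of those it tested, and none of them was a member. At an unadjusted p under 0.05, edgeR held 0 members and 3.45% of all genes, with Hnrnpr at the smallest member p of 0.154. Log2 fold changes, given throughout as aged minus adult, were above 0 for 27 members (49.1%) and at or below 0 for 28. Without adult replicate 1 the 28 became 15. Over all genes 49.5% were above 0. Their median was -0.0004 for the members and -0.0022 for all genes.

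The size of difference that the data leave room for was small for most of the set. For 42 of the 55 members (76.4%) the 95% interval of the log2 fold change lay within 1.5-fold in either direction, against 49.9% of all genes. The 2 shares were not matched for counts, on which interval width depends. The share over all genes was 39.5% with no filter and 51.7% with a filter at 1 CPM in 3 libraries. Whether the gap goes with counts was not tested, so it is not read as a result about splicing genes. These 42 were 10 SR proteins, 15 hnRNPs, 3 Sm core genes, 3 U1- or U2-specific genes, 8 SF3 subunits and all 3 U2AF genes. Libraries of the ages did not overlap for 2 members, Snrpb and Srsf3, both lower in aged rats. That is 3.64% of the members, against 7.56% of all genes that did not overlap in either direction, 4.43% with aged lower and 3.13% with aged higher. A share at or below that of all genes is not a result about the set.

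**Figure D2:**
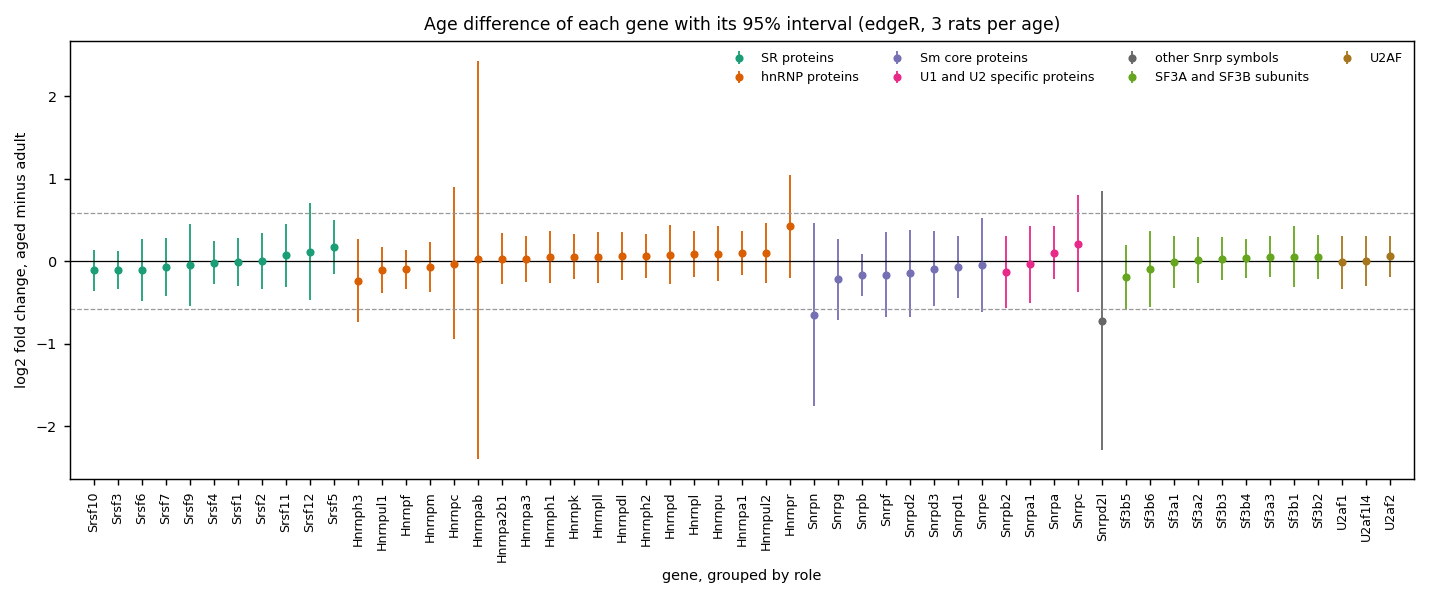
Log2 fold change (aged minus adult) of each splicing gene tested, by role, with bars for the 95% interval from edgeR and dashed lines at a 1.5-fold difference either way. All 55 intervals span 0, 42 lie inside the dashed lines, and Hnrnpab, Snrpd2l, Snrpn and Hnrnpc have the widest bars.

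The SR proteins carry RNA-binding domains and a tail rich in arginine and serine that kinases phosphorylate. Of 11 tested, 3 had log2 fold changes above 0 and 8 below, with a median of -0.021 and a range from -0.11 to 0.17. The 8 below 0 became 7 with RLE, upper-quartile scaling or DESeq2, 6 with FPKM, 3 without aged replicate 1 and 4 without adult replicate 1. Leaving out adult replicate 1 put the SR median at 0.056, and leaving out aged replicate 3 put it at -0.1003. Srsf5 measured 276, 245 and 288 CPM (a gene's count relative to the library total scaled by TMM, the trimmed mean of M-values) in adult replicates 1 to 3 and 275, 282 and 354 CPM in aged replicates 1 to 3. Aged replicate 3 was highest and the other libraries overlapped. The log2 fold change was 0.17 ± 0.14 (SE), with a 95% interval from -0.16 to 0.50 and an unadjusted p of 0.261. Without aged replicate 3 it was 0.05, and without aged replicate 1 it was 0.26.

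Srsf3, an SR protein that also promotes mRNA export, measured 104, 107 and 101 CPM in adult rats, against 95.8, 97.8 and 94.5 CPM in aged ones. Every aged library lay below every adult library, by a narrow margin. Adult and aged means of 104 ± 3.07 and 96.0 ± 1.64 CPM (SD, n = 3 each) gave a log2 fold change of -0.11 ± 0.10, with an interval from -0.34 to 0.12 and an unadjusted p of 0.293.

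Srsf2, a binder of exonic enhancers, measured 273, 223 and 253 CPM in adult rats, against 212, 252 and 286 CPM in aged ones. Both ages spanned nearly the same range, and the interval of its log2 fold change ran from -0.34 to 0.34. Srsf7, a close relative of Srsf3, measured 137, 102 and 118 CPM in adult rats, against 97.2, 124 and 119.8 CPM in aged ones, also overlapping, with a log2 fold change of -0.07 ± 0.15. For Srsf8 the count was 0 in all 6 libraries, which allows up to 3 counts, or between 0.191 and 0.24 CPM a library, as counting error only.

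The hnRNPs package nascent transcripts and bind them with differing sequence preferences. Of 19 tested, 14 had log2 fold changes above 0 and 5 below, with a median of 0.0485, and 9 were below 0 without adult replicate 2 and 8 without aged replicate 3. Their median stayed above 0 when any library was left out, between 0.0162 and 0.0965. Within the A/B proteins all 3 were above 0, from 0.03 to 0.10, and within the F/H proteins, which bind G-rich runs, 2 were above and 2 below. Hnrnpa2b1 measured 489, 398 and 504 CPM in adult rats, against 461, 504 and 459 CPM in aged ones, with adult replicate 2 lowest and adult replicate 3 and aged replicate 2 level at the top. Its log2 fold change was 0.03 ± 0.13, with an interval from -0.28 to 0.34.

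Hnrnpa1 measured 315, 313 and 346 CPM in adult rats, against 348, 365 and 329 CPM in aged ones. Aged replicates 1 and 2 lay above all adult libraries, and aged replicate 3 lay below adult replicate 3, so the ages overlapped. The log2 fold change of 0.10 ± 0.11 had an unadjusted p of 0.427. Hnrnpl measured 305, 298 and 315 CPM in adult rats, against 304, 361 and 309 CPM in aged ones. Only aged replicate 2 stood above the adult range, and the log2 fold change was 0.09 ± 0.12.

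Hnrnpr, which binds mRNA in motor axons among other sites, had the smallest p of the set. It measured 18.7, 35.0 and 24.5 CPM in adult rats, against 42.3, 24.8 and 37.6 CPM in aged ones. Aged replicates 1 and 3 were highest, but aged replicate 2 lay below adult replicate 2. Adult and aged means were 26.0 ± 8.24 and 34.9 ± 9.03 CPM (SD, n = 3 each), and the log2 fold change was 0.42 ± 0.27, with an interval from -0.20 to 1.04. Without adult replicate 2 the log2 fold change was 0.69 (unadjusted p = 0.0282, adjusted p = 0.923 by edgeR), and without aged replicate 2 it was 0.62 (unadjusted p = 0.0427, adjusted p = 0.966 by edgeR). Hnrnph3, an F/H protein, was the hnRNP with the smallest p in the other direction, at 20.7, 14.7 and 16.1 CPM in adult rats, against 11.5, 18.0 and 14.3 CPM in aged ones. Its ages overlapped, with a log2 fold change of -0.24 ± 0.22 and an unadjusted p of 0.312. It was -0.40 without aged replicate 2 and -0.07 without adult replicate 1.

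All 8 Sm core genes had log2 fold changes below 0, from -0.65 for Snrpn to -0.05 for Snrpe, with a median of -0.1593. None passed the test, and the smallest unadjusted p among them was that of Snrpb, 0.166. Without adult replicate 1 the count below 0 was 3 of 8 and the median was 0.0146, so the shared direction did not hold without that library. The choroid plexus markers stood at 2146 CPM in that same library, and their part was not tested. Leaving out another library gave between 5 and 8 of 8 below 0. The count was 5, with a median of -0.0472, without aged replicate 3. It was 6, with a median of -0.0701, without aged replicate 1. The 52 cytosolic ribosomal protein genes tested had a median length of 707 bases, against 847 for the Sm core genes. Of these 52, 49 were below 0 and 3 above, with a median of -0.1522, and 0 were called. Their counts with a library left out are not given here.

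Snrpb encodes the Sm proteins B and B′. It measured 42.7, 40.8 and 46.0 CPM in adult rats, against 38.9, 37.8 and 38.6 CPM in aged ones, so that every aged library lay below every adult one. Adult and aged means were 43.2 ± 2.61 and 38.4 ± 0.585 CPM (SD, n = 3 each), and the log2 fold change was -0.17 ± 0.11, with an interval from -0.42 to 0.09. Leaving out any library kept it between -0.21 and -0.11.

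Snrpn encodes SmN, which takes the place of B and B′ in much of the brain and lies in an imprinted locus that is read from the paternal allele. Here its symbol held only 11, 17 and 24 counts in adult and 10, 6 and 16 counts in aged rats. As CPM these were 0.751, 1.07 and 1.60 in adult and 0.666, 0.482 and 1.00 in aged libraries, which overlapped, with a log2 fold change of -0.65 ± 0.48 and an unadjusted p of 0.213. By the GRCr8 annotation Snrpn overlaps Snurf, which is made from the same transcript, and Snurf held 19, 30 and 39 counts in adult and 28, 21 and 28 in aged rats. How reads in the shared exons were assigned is not given in the sources used here, so the Snrpn level in these tables is uncertain. Snrpb held 470 to 690 counts a library.

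The other Sm genes differed more between rats of one age than between the means of the ages. Snrpd2 measured 97.5, 61.6 and 79.8 CPM in adult rats, against 65.4, 94.3 and 55.6 CPM in aged ones. Snrpe measured 43.4, 29.3 and 43.1 CPM in adult rats, against 30.4, 51.3 and 30.4 CPM in aged ones. Snrpg measured 41.4, 26.4 and 40.9 CPM in adult rats, against 28.9, 37.8 and 26.5 CPM in aged ones. In all of them adult replicates 1 and 3 and aged replicate 2 were high, while adult replicate 2 and aged replicates 1 and 3 were low, so the ages overlapped. The log2 fold changes were -0.15 ± 0.23 for Snrpd2, -0.05 ± 0.25 for Snrpe and -0.22 ± 0.21 for Snrpg, whose unadjusted p of 0.325 was the smallest of the 3. That of Snrpg was -0.41 without adult replicate 2 and -0.11 without adult replicate 1, and those of Snrpd2 and Snrpe changed sign when a library was left out.

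Proteins specific to U1 or U2 split evenly, 2 above 0 and 2 below. Snrpc, a U1 protein at the 5′ splice site, measured 29.1, 17.4 and 23.1 CPM in adult rats, against 25.1, 35.6 and 20.0 CPM in aged ones. Aged replicate 2 was highest, adult replicate 2 lowest, and the log2 fold change was 0.21 ± 0.26. Snrpb2, the U2 B″ protein, measured 35.0, 24.0 and 30.7 CPM in adult rats, against 25.2, 33.2 and 23.7 CPM in aged ones, with the high and low libraries of the Sm genes. Its log2 fold change was -0.13 ± 0.19.

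The SF3 subunits hold U2 at the branch point. Of 9 SF3 subunits, 6 had log2 fold changes above 0 and 3 below, with a median of 0.0288 (0.0003 to 0.0647 when a library was left out), and the largest in size was that of Sf3b5. Sf3b5, a small SF3B subunit, measured 82.6, 62.3 and 80.6 CPM in adult rats, against 61.6, 79.5 and 56.0 CPM in aged ones, overlapping, with a log2 fold change of -0.19 ± 0.17 and an unadjusted p of 0.286. It was -0.35 without aged replicate 2 and -0.09 without aged replicate 3. Sf3a3, an SF3A subunit, measured 58.0, 52.1 and 55.4 CPM in adult rats, against 55.0, 56.8 and 59.6 CPM in aged ones. Those libraries all lay within a narrow range, and its log2 fold change of 0.05 ± 0.11 had an interval from -0.19 to 0.30.

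U2af1, the small subunit that reads the AG of the 3′ splice site, measured 100.0, 83.6 and 94.0 CPM in adult rats, against 83.9, 108 and 83.3 CPM in aged ones. U2af2, the large subunit that binds the polypyrimidine tract, measured 144, 144 and 159 CPM in adult rats, against 152, 152 and 162 CPM in aged ones. Both overlapped between ages. Their log2 fold changes were -0.01 ± 0.14 and 0.06 ± 0.11, and U2af1l4, a paralog of U2af1, was at 0.0035.

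Differences between libraries that did not follow age were shared by many of these genes. For each gene, the log2 of CPM plus 0.5 in a library was set against the gene's own mean over the 6 libraries. In adult replicate 2, 12 of the 55 members lay above their own mean (21.8%, against 50.3% of all genes), and that library was the lowest of the 6 for 24 members (43.6%, against 14.6% of all genes). In adult replicate 3, 45 members lay above their mean (81.8%, against 51.7%). These shares describe the libraries and carry no test.

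Roles differed in how they moved. The median deviations of the 8 Sm core genes were 0.24, -0.28 and 0.20 in adult replicates 1 to 3 and -0.20, 0.23 and -0.23 in aged replicates 1 to 3. Leaving aside Snrpb and Snrpn, a choice made after their values were seen, the remaining 6 Sm genes all lay above their means in adult replicates 1 and 3 and aged replicate 2, and all below in the other libraries. For the SR proteins the medians were 0.09, -0.15 and 0.07 in adult and -0.12, -0.01 and 0.08 in aged rats, so aged replicate 3 was high for SR genes and low for Sm genes. In aged replicate 3, 9 of 11 SR genes lay above their mean, and in aged replicate 1 only 1 of 11. The 4 U1- and U2-specific genes had medians of the same sign as the Sm genes in each library, at 0.19, -0.29 and 0.11 in adult and -0.06, 0.24 and -0.15 in aged rats. The hnRNP medians stayed between -0.10 and 0.03.

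**Figure D3:**
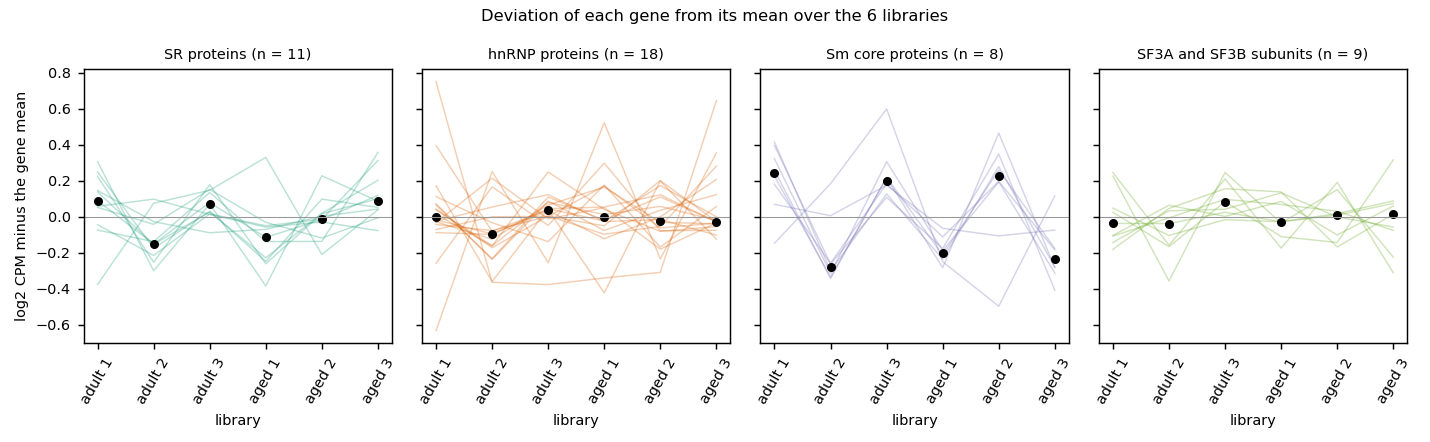
Deviation of each gene from its own mean (log2 of CPM plus 0.5) in each library for SR proteins (n = 11), hnRNPs without Hnrnpab (n = 18), Sm core proteins (n = 8) and SF3 subunits (n = 9), with black dots at the medians. The Sm medians swing from 0.24 in adult replicate 1 to -0.28 in adult replicate 2 and from 0.23 in aged replicate 2 to -0.23 in aged replicate 3, while the medians of the SR, hnRNP and SF3 genes stay nearer 0.

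Gene length moved with part of this pattern. The 11 members under 1000 bases had median deviations of 0.22, -0.26 and 0.15 in adult and -0.16, 0.19 and -0.23 in aged rats. The medians of the 934 genes under 1000 bases in the table lay above and below 0 in the same libraries, at 0.19, -0.13 and 0.12 in adult and -0.13, 0.18 and -0.23 in aged rats, and so did those of the 52 ribosomal protein genes, at 0.24, -0.12 and 0.12 in adult and -0.25, 0.29 and -0.29 in aged rats. The lowest library differed, being adult replicate 2 for the members and aged replicate 3 for both other sets. Of the 934 genes, 75.9% lay above their own mean in adult replicate 1 and 29.2% in adult replicate 2. The 10 longest members (median 6002 bases) had median deviations of 0.03, -0.12 and 0.08 in adult and -0.1, -0.08 and 0.09 in aged rats. Those of the 5259 longest genes (median 5916 bases) were -0.03, 0.04 and -0.02 in adult and 0.02, -0.09 and 0.08 in aged rats. The signs were opposite except in aged replicates 2 and 3. In adult replicate 2, 20% of these members lay above their own mean, against 58.2% of these genes. Across the 55 members, which share libraries and depth, Spearman's rho between length and deviation was -0.39, 0.41 and -0.28 in adult and 0.21, -0.49 and 0.54 in aged replicates. Across 14588 genes it had the same sign in each library, at -0.17, 0.17 and -0.13 in adult and 0.09, -0.28 and 0.35 in aged replicates. Between length and the log2 fold change by age, rho was 0.23 over the members and 0.12 over all genes. The part that length has in the Sm values was not tested.

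**Figure D4:**
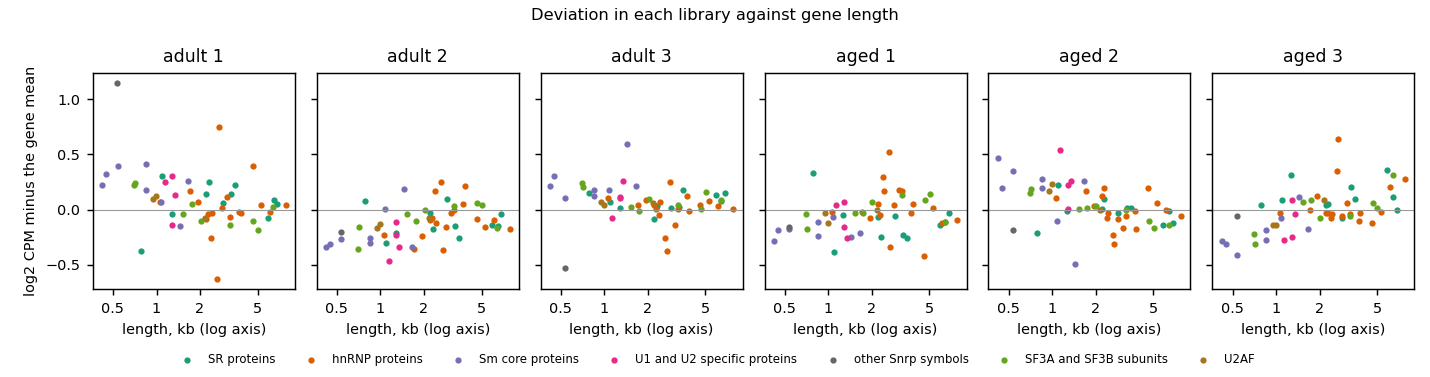
Deviation from the gene's own mean (log2 of CPM plus 0.5) against gene length on a log axis, in a panel for each library, with 1 point per splicing gene except Hnrnpab. Short genes sit high in adult replicate 1 (rho = -0.39 with Hnrnpab included) and aged replicate 2 (rho = -0.49) and low in adult replicate 2 (rho = 0.41) and aged replicate 3 (rho = 0.54).

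A few members varied widely between rats of the same age. Hnrnpab, an RNA-binding relative of hnRNP D that is also known as CBF-A, measured 37.7, 55.1 and 5.73 CPM in adult rats, against 3.79, 83.9 and 12.7 CPM in aged ones. The highest and lowest libraries differed 9.61-fold among adult and 22.1-fold among aged rats, and both ages held high and low libraries. The larger of its within-age SDs on the log2 scale lay at the 99.7th percentile of all genes, and the log2 fold change of 0.02 ± 1.05 had an interval from -2.40 to 2.43. The spread of Hnrnpab thus leaves its difference by age undetermined at this number of rats. Phykpl, which overlaps Hnrnpab by the GRCr8 annotation, held 33, 26 and 8 counts in adult and 11, 24 and 8 in aged rats, so it too was high in adult replicates 1 and 2 and aged replicate 2. Whether reads are shared between this pair was not tested.

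Hnrnpc, which binds uridine runs and keeps cryptic exons out, measured 21.0, 9.42 and 9.33 CPM in adult rats, against 9.58, 9.80 and 19.5 CPM in aged ones. One library of each age, adult replicate 1 and aged replicate 3, stood above the other libraries, which lay between 9.33 and 9.80 CPM. The log2 fold change was -0.03 ± 0.40, and it was -0.45 without aged replicate 3 and 0.48 without adult replicate 1. Snrpd2l, an Sm D2-like symbol, held 35, 10 and 6 counts in adult and 10, 8 and 12 in aged rats, with only adult replicate 1 apart. Its log2 fold change of -0.72 ± 0.68 became 0.42 without that library. By the GRCr8 annotation Snrpd2l overlaps P4ha1, which held 867 to 1146 counts with no such difference in adult replicate 1. Hnrnpab and Snrpd2l were the members with at least a 4-fold difference between libraries of one age, 3.64% of the set against 5.91% of all genes.

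**Figure D5:**
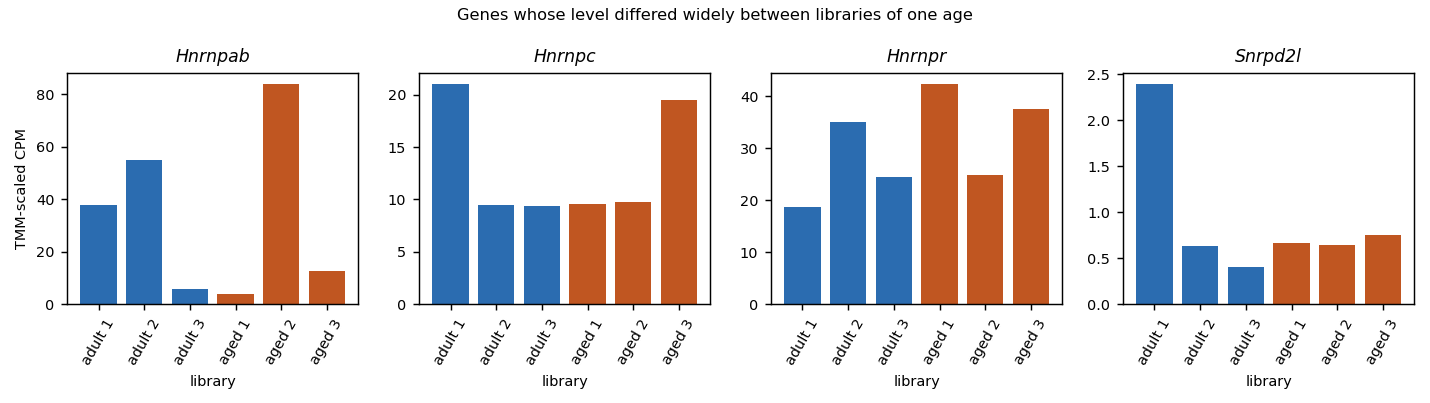
CPM scaled by TMM in each of the 6 libraries for Hnrnpab, Hnrnpc, Hnrnpr and Snrpd2l, as bars from 0. Hnrnpab spans 3.79 to 83.9 CPM with high and low bars at both ages, Hnrnpc is high in adult replicate 1 and aged replicate 3, and Snrpd2l is high in adult replicate 1 alone.

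Promoter sequences were read to describe what genes of a role share beyond their symbols. Whether any motif goes with the differences between libraries was not tested. Windows of 300 bases, from 250 before to 50 after the annotated start, were found for 52 of the 56 members in RefSeq's GRCr8 annotation. They were searched on both strands for 6 short motifs; copies of one motif that overlap on opposite strands were both kept. The ETS site, bound by the large ETS family of activators, was spelled CCGGAAG. The site of NRF1, a regulator of nuclear genes for mitochondrial proteins, was spelled GCATGCG. The GC box, bound by SP1 and its relatives, was spelled GGGCGG. The site of YY1, a zinc finger factor, was spelled AAGATGG, and the TATA box of the basal machinery was spelled TATAAA. The CCAAT box, bound by NF-Y, was searched by those letters. It was present anywhere in the window in 16 of 18 hnRNP promoters (88.9%), against 37.7% of all 27457 promoters and 37.2% of the 10729 promoters of genes tested. Its place varied. In Hnrnph3, Hnrnpk and Hnrnpu the only match lay at or after the start, at positions 27, 0 and 26. In Hnrnpul2 it lay far before the start, at -240. For all members the share was 55.8%, and for SF3 subunits it was 1 of 8. The ETS letters were present in 4 of 8 Sm promoters, in 4 of 8 SF3 promoters and in 2 of 18 hnRNP promoters, against 9.22% of all promoters and 15.6% of those of genes tested. The GC box was in 61.5% of member promoters and 61.2% of those of genes tested. The NRF1 letters were in 9.62% of member promoters and 5.9% of those of genes tested, the YY1 letters in 5.77% and 8.02%, and TATAAA in 11.5% and 6.94%. The median number of CpG dinucleotides was 24 in members and 20 in genes tested. A match describes letters only and says nothing of binding, and these data hold no measure of it.

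The 120 bases before the start of 5 Sm genes and of the 3 most abundant hnRNP genes are given from GRCr8 by RefSeq, 5′ to 3′ on the gene's strand, to show these letters in place. Capitals mark complete ETS, GC box and CCAAT matches on either strand, and a match on the other strand shows its reverse complement, such as ATTGG for CCAAT.
Snrpd2, chr1:87926289-87926408, plus strand: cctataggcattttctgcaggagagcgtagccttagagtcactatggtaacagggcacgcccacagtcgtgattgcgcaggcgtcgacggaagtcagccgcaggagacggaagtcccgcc
Snrpe, chr13:47609252-47609371, minus strand: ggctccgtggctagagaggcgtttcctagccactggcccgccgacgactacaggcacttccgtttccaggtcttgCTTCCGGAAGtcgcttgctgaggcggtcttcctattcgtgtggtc
Snrpg, chr4:120369591-120369710, plus strand: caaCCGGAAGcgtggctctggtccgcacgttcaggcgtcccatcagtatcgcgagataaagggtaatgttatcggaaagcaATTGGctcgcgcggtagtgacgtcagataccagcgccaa
Snrpf, chr7:30024163-30024282, minus strand: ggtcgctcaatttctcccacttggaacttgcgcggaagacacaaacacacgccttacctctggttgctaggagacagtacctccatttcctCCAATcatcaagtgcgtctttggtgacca
Snrpb, chr3:137832480-137832599, minus strand: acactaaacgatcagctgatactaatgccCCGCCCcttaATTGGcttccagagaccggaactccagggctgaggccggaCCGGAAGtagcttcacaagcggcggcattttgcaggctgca
Hnrnpa2b1, chr4:81875887-81876006, minus strand: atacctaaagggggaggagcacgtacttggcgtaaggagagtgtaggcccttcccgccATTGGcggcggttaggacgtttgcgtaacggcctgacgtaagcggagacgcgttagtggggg
Hnrnpa1, chr7:136253998-136254117, plus strand: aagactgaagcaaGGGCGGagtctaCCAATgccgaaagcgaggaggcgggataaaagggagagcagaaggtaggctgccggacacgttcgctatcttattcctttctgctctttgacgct
Hnrnpl, chr1:93228281-93228400, plus strand: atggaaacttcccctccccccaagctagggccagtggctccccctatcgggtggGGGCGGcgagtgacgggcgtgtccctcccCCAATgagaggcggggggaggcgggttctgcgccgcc
Snrpe carries the ETS letters on both strands at overlapping places, Snrpg and Snrpb carry ETS and CCAAT matches together, and Snrpf carries CCAAT alone. Snrpd2, the most abundant Sm gene, has none of these in the bases shown. Snrpb has a GC box as well. All 3 hnRNP stretches hold CCAAT.

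Genes that work beside these factors were followed as 7 lists with 146 genes in all, chosen by function, and edgeR and DESeq2 called 0 of those tested, whose numbers are given with each list. Among 30 neuronal and tissue splicing regulators tested, 15 had log2 fold changes above 0 and 15 below, with a median of 0.0091. An unadjusted p under 0.05 was found for 1 of the 30, where 3.45% of all genes had one, and 2 of the 30 did not overlap between ages, where 7.56% of all genes did not. These counts are near those of the whole table and are not a result about the list. The gene with the smallest p, Celf6, encodes an RNA-binding splicing regulator expressed in brain and measured 19.1, 18.8 and 16.2 CPM in adult rats, against 20.5, 24.4 and 23.8 CPM in aged ones. Every aged library lay above every adult one, and the log2 fold change was 0.34 ± 0.15 (unadjusted p = 0.0498, adjusted p = 1.0 by edgeR). Ptbp3, a paralog of the polypyrimidine tract repressor Ptbp1, measured 22.3, 24.8 and 25.9 CPM in adult rats, against 19.7, 19.0 and 21.7 CPM in aged ones. Its ages did not overlap either, in the other direction, with a log2 fold change of -0.27 ± 0.14 and an unadjusted p of 0.0839.

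The kinases and importer that act on SR proteins numbered 10, 5 above 0 and 5 below, and the gene with the smallest p, Srpk3, had a log2 fold change of 0.72 ± 0.45 (unadjusted p = 0.149), while Srpk1, the kinase with the smallest p below 0, had -0.05 ± 0.10. Of 28 genes of the tri-snRNP and catalytic core, 19 were above 0 and 9 below, with a median of 0.0433, and the smallest p in each direction belonged to Plrg1 at 0.15 ± 0.11 and Snrnp27 at -0.13 ± 0.15. Of 21 Sm-like proteins and snRNP assembly factors, 7 were above 0 and 14 below, with a median of -0.0586. In that list Wdr77, a partner of the methyltransferase Prmt5, had a log2 fold change of 0.60 ± 0.34 (unadjusted p = 0.112), with aged replicate 1 at 11.5 CPM and the other libraries between 4.03 and 6.13 CPM. Lsm6, of the ring that binds U6, had -0.34 ± 0.27.

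Other hnRNP-like proteins had 9 of 20 above 0, with a median of -0.0098, and the smallest p in each direction belonged to Matr3, a nuclear matrix protein, at 0.20 ± 0.13 and to Syncrip, a relative of Hnrnpr, at -0.15 ± 0.12. U1 and minor spliceosome proteins had 5 of 12 above 0, with Snrnp70, the U1 70K protein, at 0.17 ± 0.18 and Zmat5, a minor spliceosome protein, at -0.21 ± 0.19. Exon junction and branch point partners had 8 of 17 above 0, with the helicase Ddx46 at 0.09 ± 0.11 and the exon junction protein Magoh at -0.17 ± 0.17.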

How the data were processed

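RNA of 3 adult and 3 aged rats, each a separate animal, was measured. The authors deposited raw counts per gene symbol, and FPKM values, which scale each count by 1 length per gene and by library depth, as the deposited values show. Reads were mapped to Rnor 6.0, per the submitters' processing notes; no source used here names the aligner, the counter, the annotation or the strand setting. Genes were filtered with filterByExpr, scaled by TMM and tested, two-sided, with edgeR 4.0.16 quasi-likelihood (R 4.3.3), age as the only term, and Benjamini-Hochberg adjustment over all 14588 genes at a threshold of 0.05. SE and 95% intervals come from the F statistic. FPKM served for levels between genes, for gene lengths and in 2 of the alternatives. Members were taken by symbol; members and lists were chosen with earlier results of these data known.

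Genes given library by library were the highest by mean FPKM of each role (3 for SR, hnRNP and Sm, otherwise 1), those with the smallest p in each direction of a role, the 4 with the widest spread within an age among those with a mean of at least 1 CPM, Snrpb, Snrpn and those that failed the filter. From the related lists the rule took the smallest p in each direction. Snrpd2l was named by its role. Alternatives were RLE and upper-quartile scaling, no filter, a filter at 1 CPM in 3 libraries, DESeq2 1.42.0, and limma 3.58.1 on log2(FPKM + 1) and log2(FPKM + 0.1), the replicate number as a block, and leaving out each library. The fit was tested on simulated counts of the 14588 genes, where for aged against adult the calls took in 2% of the genes set to differ 1.5-fold, 44.9% of those set to 2-fold, 82% of those set to 4-fold, 94% of those set to 8-fold and 7 of 14216 unchanged genes. Totals of 12476758 to 15689921 counts set the depth; the limit given for a count of 0 covers counting error only. GRCr8 was used for overlapping genes, for which all 56 members matched by symbol and 24 overlap another gene, and for promoters. Isoforms and exon use were not analysed here.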

Additional observations from a re-analysis of the deposited data

How the results depend on the processing

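The count of members called was 0 under all 14 alternatives. Over all genes, DESeq2 called 31, limma on log2(FPKM + 1) called 2, and leaving out 1 library gave between 0 and 1. Members at an unadjusted p under 0.05 lay between 0 and 1 when a library was left out (Hnrnpr without adult replicate 2 or aged replicate 2). The replicate numbers are shared by the ages, but same-numbered libraries did not deviate together (correlations of -0.2, -0.131 and 0.0545), and with the replicate block 0 genes were called, 468 genes had an unadjusted p under 0.05 and 37 members, against 42, had an interval within 1.5-fold. With the block, 42.6% of all genes had such an interval. The count of members lay between 34 and 40 of 55 when a library was left out. The share of all genes then lay between 38.6% and 41.7%. These settings for the interval count were chosen after seeing the data. Sm core genes were 8 of 8 below 0 under every scaling, filter, tool and block, and 3 to 8 when a library was left out. SR genes below 0 went from 8 to 3 without aged replicate 1 and 4 without adult replicate 1, and hnRNP genes below 0 from 5 to 9 without adult replicate 2.

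Log2 fold changes near 0 changed sign. Hnrnpab was at -0.41 and -0.49 with FPKM plus 1 and plus 0.1 and at -0.32 with the replicate block. Hnrnpc was at 0.01 and 0.01 with FPKM plus 1 and plus 0.1. Srsf2 was at 0.01 with RLE, 0.0044 with upper-quartile scaling, 0.01 with DESeq2 and 0.01 with both FPKM settings. The cause was not tested. Leaving out 1 library, the ranges of genes that changed sign were -0.07 to 0.11 for Hnrnpa2b1, -1.98 to 0.62 for Hnrnpab, -0.45 to 0.48 for Hnrnpc, -0.28 to 0.01 for Snrpb2, -0.04 to 0.42 for Snrpc, -0.39 to 0.03 for Snrpd2, -1.11 to 0.42 for Snrpd2l, -0.34 to 0.10 for Snrpe, -0.11 to 0.12 for Srsf2, -0.17 to 0.06 for Srsf7 and -0.14 to 0.06 for U2af1. Of genes that kept their sign, the ranges were 0.07 to 0.15 for Hnrnpa1, 0.01 to 0.15 for Hnrnpl, 0.24 to 0.69 for Hnrnpr, 0.01 to 0.10 for Sf3a3, -0.98 to -0.33 for Snrpn and 0.03 to 0.11 for U2af2. Medians ran from -0.0574 to 0.0472 for all members, -0.3509 to 0.0146 for Sm core, -0.1067 to 0.1444 for U1- and U2-specific and -0.0788 to 0.0619 for U2AF genes. With 3 rats an age and a biological coefficient of variation of 23.4%, most differences of 1.5-fold set in the simulated data were not called.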
